A study of Homo sapiens with 2 samples.

Results

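Of the 20499 NUDT21 eCLIP peaks deposited for J-Gamma1 cells, 700 (3.41%) had their midpoint in an exon of a protein-coding gene that only transcripts without a coding sequence contain. The members were found from the peak positions and the GENCODE 44 annotation on hg38 alone: the midpoint had to lie in an exon of a transcript without CDS and in no CDS, 5′UTR or 3′UTR of any coding transcript. They fell in 523 genes. A transcript annotated as a retained intron held 560 of them. For 539 this was the only type, 133 lay in transcripts of coding genes with no CDS defined, 21 in both types and 7 in transcripts that await experimental confirmation.

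The study compared an eCLIP library made with a NUDT21 antibody (n = 1) with an input library (n = 1), both from J-Gamma1, a Jurkat-derived cell line of T-cell acute lymphoblastic leukemia (T-ALL), with no other treatment given in the labels. Cells of both groups received UV-C light of 254 nm on ice 2 times, at a dose of 400 mJ each, then 15 min of lysis and 40 U of RNase I at 37 °C for 5 min. The values come from the peaks of the antibody library. No file of the input was used here, there was no replicate, and the depth of both libraries was unknown, so no difference was tested and each interval covers counting error only. Of 12 genes that mark T cells 3 held any peak, among them CD3E with a highest peak of 19 Score steps, against 1 of 5 B-cell, 0 of 5 myeloid and 0 of 4 erythroid genes. A peak list is no measure of expression.

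NUDT21 is the subunit of cleavage factor I that recognises UGUA in RNA, and with its partners it guides where a nascent transcript is cleaved and polyadenylated. An intron that stays in an otherwise spliced RNA is called retained, and such RNA is often kept in the nucleus or degraded rather than translated. Annotated retained-intron transcripts also include partial copies of a gene that read from an exon into the following or preceding intron, so the annotation alone does not tell a stable product from a splicing intermediate.

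The members with the highest fold enrichment are shown first, since they carry the positions described below. Of the 15 with the highest values, 8 reached across the end of a coding exon into the intron that follows it, and 0 across the start of one. The capitals mark the last 15 bases of the coding exon and the lower case the first 15 bases of the intron, on the gene strand of hg38 in DNA letters. In all 8 the intron opened with gt, the bases of a 5′ splice site. The same held for 130 of all 134 members that crossed only the end of an exon.
SMC4, chr3:160416401-160416430, plus strand: CAGAAAGAAAAAGAAgtaagtttttttttt
LRRFIP2, chr3:37174524-37174553, minus strand: GCTACCATCACTAAGgtatgaaaatgttca
DDX46, chr5:134811344-134811373, plus strand: GATCAGCAGAAAGCTgtgagtttttaaccc
PRRC2A, chr6:31636931-31636960, plus strand: TTGGGGCGAGCAGAGgtaaggtacaggaac
NUCB2, chr11:17295453-17295482, plus strand: AAGATAGAACCACCAgtaagtgaaatgaag
BUB1, chr2:110666248-110666277, minus strand: CAGGAAAGGTCCGAGgtatgttgtgctcct
GCN1, chr12:120177669-120177698, minus strand: CCGAAGTACCTGTTGgtgagcgagaggtgg
PCF11, chr11:83157617-83157646, plus strand: GCCCAAACCGCCAAGgtttttatacacccc

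Of the same 15 peaks 4 held UGUA, the motif of NUDT21, on the gene strand, against 52.6% of all members. The share depended on the length of the peak, with 25.3% of members up to 100 nt and 71.6% of those over 300 nt. Windows of 30 bases from the 4 peaks follow, with the motif in capitals (TGTA in DNA letters). The motif shown for LRRFIP2 lies upstream of the coding-exon end given above, not in the noncoding segment that held the midpoint.
DCAF16, chr4:17809669-17809698, minus strand: tgtcaggttaattTGTAacccagccaaaga
LRRFIP2, chr3:37174560-37174589, minus strand: gaaggggtctagaTGTAaatgtcagtggaa
DDX46, chr5:134811537-134811566, plus strand: tttgtggtgtctaTGTAgagctcttagttt
HMGN1, chr21:39346349-39346378, minus strand: tgatagcaatgtgTGTAgtagcagttttgt

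The other 11 held no UGUA anywhere in the peak. The windows around the midpoint of 3 that lie wholly inside noncoding-exon sequence are given in lower case throughout, since no motif is marked.
DDX17, chr22:38490089-38490118, minus strand: atccagctgtgcatgcacacacaggacacc
SRSF10, chr1:23976675-23976704, minus strand: ttaccgagtaaagtagaaacttgccatcag
SIVA1, chr14:104758126-104758155, plus strand: ggaccaggcgtcgcaggagtgggggaaaac

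Most members were low peaks, but high ones were more frequent among them than among intron peaks. The deposited Score rose in whole steps of 0.228 (all 20499 Scores within 0.01 of a whole step), so it is given here in steps. Members had a median of 2 steps and a highest value of 36, and 278 of 700 (39.7%, exact Clopper-Pearson 95% interval 36.1 to 43.4) stood at 1 step. Those with 5 or more steps numbered 186 (26.6%, 23.3 to 30.01), against 42.3% of all peaks in the list. The share was 9.31% (8.65 to 9.996) for the 7286 peaks in introns and 71.5% (70.6 to 72.4) for the 10570 peaks in exons of coding transcripts. The members' share lay between the other two, and none of the 3 intervals overlapped.

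**Figure D1:**
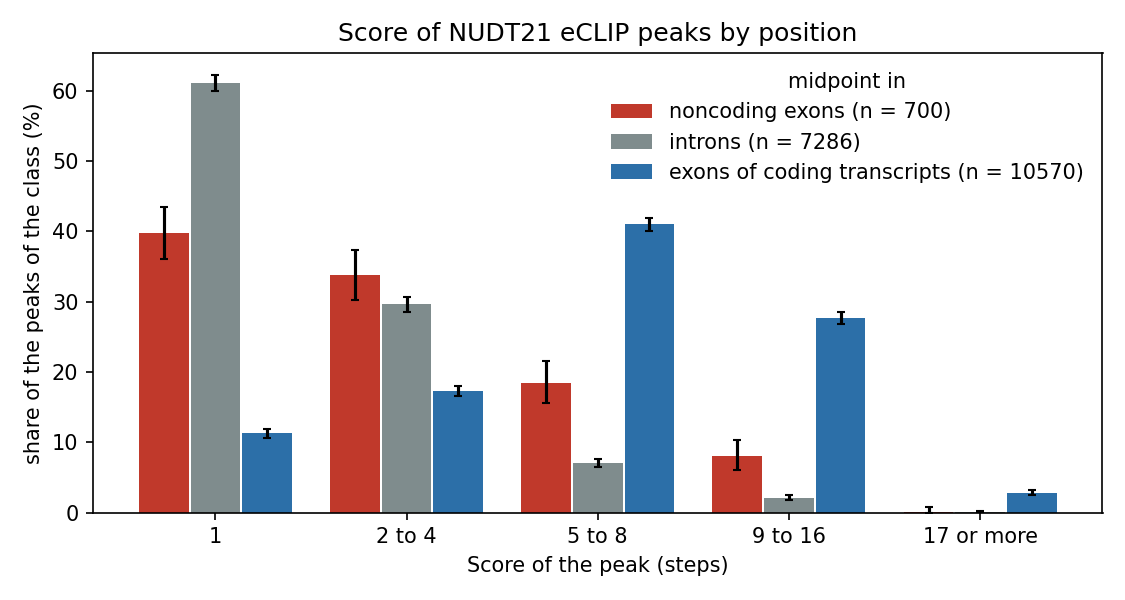
Share of peaks (%, vertical axis) in each class of Score (steps, horizontal axis) for peaks with the midpoint in noncoding exons, in introns and in exons of coding transcripts; bars start at 0 and lines are exact 95% intervals (counting error only). Noncoding-exon peaks stand between the other classes, with 18.4% at 5 to 8 steps against 7.04% of intron peaks and 41.0% of coding-exon peaks.

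The deposited false discovery rate (FDR) was 1 for each of the 700 members, as for 20383 of the 20499 peaks of the list, so 0 members had an FDR under 0.05, against 0.0927% of the whole list (19 peaks). A q-value threshold of 0.05 is stated for the peak calling, which these FDR values do not meet, so the FDR separates few peaks of the list and says little of the members. The lowest deposited p-value among members was 6.69e-06, in SMC4. Members reached fold enrichments of 1.17 to 3.96 (median 1.39). Members had a median length of 215.5 nt (quartiles 111 and 327), against 264 nt for intron and 91 nt for coding-exon peaks. Members of 5 or more steps were shorter (median 104 nt) than lower members (243 nt).

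To describe what kind of exon held them, members were ordered by how the noncoding exon lies to the coding transcripts of its gene. In 289 (41.3%, 37.6 to 45.03) the exon spanned a whole intron of a coding transcript, which is retention in the strict sense. In 340 (48.6%, 44.8 to 52.3) it extended a coding exon into an intron without reaching the next exon. The exon stood by itself inside an intron in 64 (9.14%, 7.11 to 11.5), as an alternative first, last or internal exon would, and outside the coding transcripts in 7. Among the 560 members in transcripts typed as retained introns, 48.4% (44.2 to 52.6) spanned a whole intron, so the name of the type did not describe the position of the others.

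Exons that spanned a whole intron held more peaks for their length than the other classes. They made up 27.3% of the noncoding-exon sequence (6.06 Mb) and held 47.7 midpoints per Mb, 1.87 times the density of the rest (exact conditional 95% interval 1.61 to 2.18). Extensions held 28.6 per Mb and exons inside introns 18.04 per Mb, which were 0.820 (0.705 to 0.954) and 0.530 (0.403 to 0.686) times the density of the respective rest. Members of 5 or more steps numbered 84 in spanned introns, 91 in extensions, 11 inside introns and 0 outside.

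The 289 members in spanned introns lay in 234 introns with a median length of 758 nt (quartiles 485 and 1562, range 85 to 7766). When each intron was cut into 3 equal parts in the direction of the gene, 110 midpoints fell in the upstream, 70 in the middle and 109 in the downstream part. For the 84 members of 5 or more steps the same counts were 39, 22 and 23. In introns of up to 200 nt, 31 of 36 members also covered bases of a coding exon, while in introns over 2000 nt 2 of 45 did.

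Peaks were denser in noncoding exons than in the remaining intron sequence of the same genes. Over the 13583 genes with such an exon, the exons held 31.5 midpoints per Mb (22.2 Mb) and the other intron sequence 6.42 per Mb (1017 Mb), a ratio of 4.91 (4.54 to 5.31). The ratio was 3.22 (2.84 to 3.64) for peaks of 1 step, 5.54 (4.82 to 6.34) for 2 to 4 steps and 13.7 (11.6 to 16.2) for 5 or more steps. In the 3535 of these genes that also held a coding-exon peak it was 3.79 (3.42 to 4.19) for all and 10.03 (8.34 to 12.01) for high peaks. Without the 10 genes that held most members it was 4.53 for all and 9.80 (8.03 to 11.9) for high peaks.

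Distance to the nearest coding exon moved with this ratio. Within 100 nt of a coding exon, in the 3535 genes, noncoding exons held 86.8 and other intron sequence 77.6 midpoints per Mb, a ratio of 1.12 (0.920 to 1.35). From there to 500 nt the ratio was 1.79 (1.51 to 2.11) and from 500 to 2000 nt it was 2.98 (2.44 to 3.61). For peaks of 5 or more steps it went from 1.17 (0.847 to 1.60) within 100 nt to 6.13 (4.45 to 8.39) and 12.1 (8.11 to 17.9) in the same 2 bins. The last value rested on the 10 genes with most members: without them it was 3.78 (1.81 to 7.12, 11 high members in place of 39), and the value of the bin before was 4.47 (3.08 to 6.40). Near a coding exon the densities could thus not be told apart at these counts. High peaks became sparser with distance in both classes, in noncoding exons from 33.0 to 23.1 and 18.2 per Mb and in other intron sequence from 28.1 to 3.76 and 1.5 per Mb. Beyond 2000 nt only 11 members were counted, 3 of them high, and the ratio for all peaks was 2.00 (0.994 to 3.59). How much RNA of each exon the cells held was not measured in the files used here, so more binding and more RNA cannot be told apart.

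**Figure D2:**
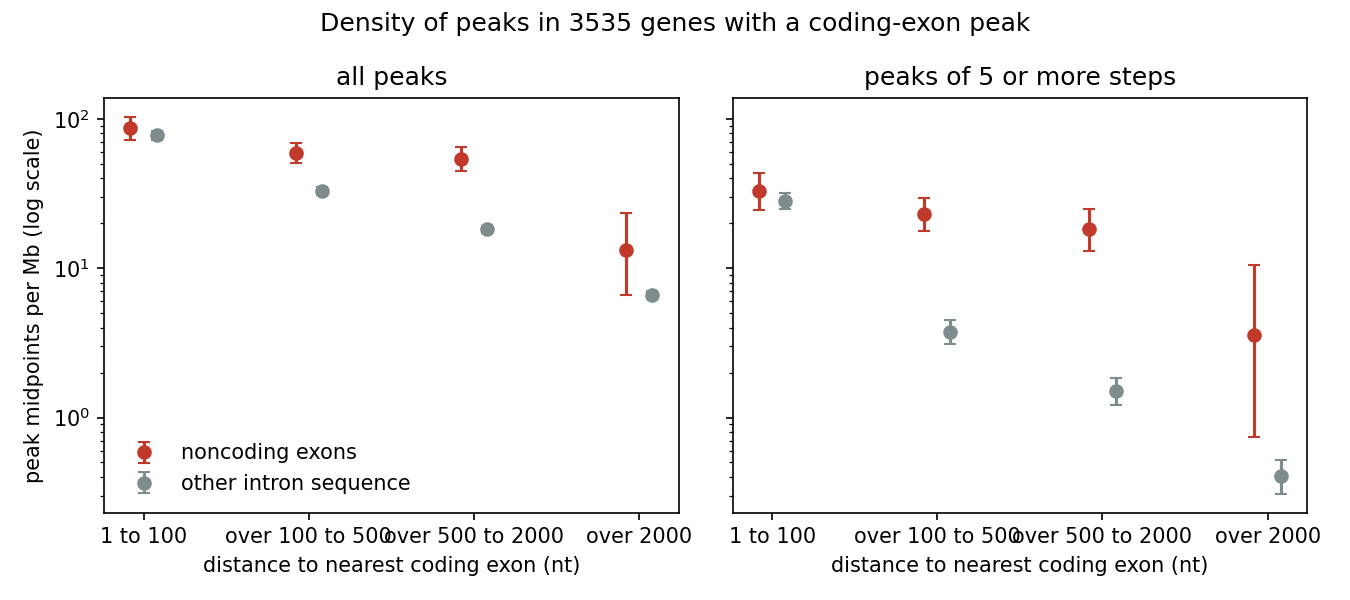
Peak midpoints per Mb (log scale) against the distance from the nearest coding exon (nt), in noncoding exons and in the other intron sequence of 3535 genes with a coding-exon peak, for all peaks (left) and for peaks of 5 or more steps (right); lines are exact 95% intervals. The classes lie together within 100 nt, and between 500 and 2000 nt high peaks stand at 18.2 per Mb in noncoding exons (5.17 without the 10 genes with most members) against 1.5 per Mb in other intron sequence.

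Another set of values concerned the edges of coding exons, where spliced and unspliced RNA share sequence. Noncoding exons that span an intron or extend a coding exon adjoin coding exons by definition. In the 3535 genes with a coding-exon peak, 1.49 Mb of noncoding-exon sequence lay within 100 nt of a coding exon and 2.98 Mb beyond 500 nt. For other intron sequence the values were 9.51 and 208 Mb. The shares below were not compared at equal distance from an edge. Of the 700 members 263 (37.6%, 34.0 to 41.3) covered at least 1 base of a coding exon of their gene, with a median of 47 bases. Including exons of other genes there were 265 (37.9%, 34.3 to 41.6), against 24.1% (23.1 to 25.1) of intron peaks. The order was the other way from 5 steps upwards, with 35.5% (28.6 to 42.8) of members and 57.2% (53.4 to 61.0) of intron peaks. Among lower peaks it was 38.7% (34.5 to 43.1) and 20.7% (19.7 to 21.7). The first difference rested on the 10 genes with most members: without these genes the values were 49.2% (40.3 to 58.2) and 58.6% (54.7 to 62.4), with overlapping intervals, while those of lower peaks were 38.7% and 20.7%.

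The side of the coding exon depended on the height of the peak. Of the 66 high members at an edge, 49 covered the end of the exon upstream, 15 the start of the exon downstream and 2 both, so the upstream exon made up 76.6% (64.3 to 86.2) of those on 1 side. Of 197 lower members at an edge, 85 covered the upstream exon, 96 the downstream exon and 16 both, which is 47.0% (39.5 to 54.5). Each of the 49 edges was the 5′ splice site of an annotated coding intron, followed by GT, and each of the 15 was a 3′ splice site, preceded by AG. Among lower members 82 of the 85 upstream and all 96 downstream edges were annotated splice sites too. By the rule a member that covers a coding exon crosses an exon edge, so these counts do not set the high members apart. Intron peaks of the same height had close shares, with 77.4% (72.7 to 81.6) on the upstream exon for 5 or more steps and 50.1% (47.3 to 52.9) below. In spanned introns the split by height was 82.1% (63.1 to 93.9) against 35.4% (25.1 to 46.7), and in extensions 72.2% (54.8 to 85.8) against 56.7% (46.3 to 66.7), where the intervals overlapped. Without the 10 genes with most members the share of high members on the upstream exon was 75.4% (62.7 to 85.5). The comparison of sides was chosen after the windows above had been seen.

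UGUA had close to the same density in members as in the rest of the same exons. On the gene strand 699 members (1 in genes of both strands was left out) held 4.48 UGUA per kb and the rest of their exons 4.56 per kb, a ratio of 0.981 (0.894 to 1.07). When each gene was compared with its own exons (Mantel-Haenszel ratio over 479 genes) it was 1.01 (0.909 to 1.12). The opposite strand gave 1.01 (0.902 to 1.14) on the same measure, and the 11 other orders of the same bases gave 0.866 to 1.13, with 7 above UGUA. For members of 5 or more steps the ratio within genes was 1.04 (0.822 to 1.32), and 5 of the 11 other orders were above it. Differences within these intervals were not detectable at these counts.

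In all, 368 members (52.6%, 48.8 to 56.3) held at least 1 UGUA, with up to 6 in a peak. Of 7078 intron peaks in genes of 1 strand 62.6% (61.4 to 63.7) did. Members were shorter and had a higher median GC content (45.3% against 42.4%). The share rose with the length of the peak, and it was not compared by GC content. Among peaks of up to 100 nt the shares were 25.3% (18.7 to 33.0) and 28.7% (25.7 to 31.8), and among those over 200 and up to 300 nt 64.7% (56.7 to 72.2) and 64.3% (62.1 to 66.6). Their intervals overlapped in these classes and in the class between them. Over 300 nt members held UGUA less often, at 71.6% (65.1 to 77.5) against 79.1% (77.6 to 80.6).

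On average the high members differed slightly in base composition from the rest of their exons. Base ratios were not computed for lower members alone or for intron peaks. Within genes, members of 5 or more steps held less U than the rest of their exons (ratio 0.907, 0.880 to 0.935), more A (1.07, 1.04 to 1.11) and more G (1.08, 1.04 to 1.11). Of 205 words of 4 bases counted at least 50 times in them, GGAC (1.60, 1.20 to 2.14), GAAC (1.52, 1.14 to 2.02) and AGAA (1.51, 1.26 to 1.81) had the highest ratios. The lowest were UUUC (0.543, 0.430 to 0.687) and UUUU (0.593, 0.513 to 0.685). UGUA stood at rank 92 of the 205. Purine-rich words thus led and pyrimidine-rich words came last, and these words were picked by their values, so the intervals describe them and test nothing.

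Since NUDT21 acts where transcripts are cleaved, the annotated ends of the noncoding transcripts were examined. A total of 95 members (13.6%, 11.1 to 16.3) had their midpoint within 150 nt of the 3′ end of a transcript that held them, and 11.9% of the noncoding-exon sequence lay that near. Within 50 nt the values were 4.57% (3.15 to 6.39) and 4.50%, and within 300 nt 22.3% (19.3 to 25.6) and 19.8%. Each share of sequence lay inside the interval of the members, and the median distance to an end was 2134 nt. A difference from the exons themselves was thus not detectable. Many annotated ends of such transcripts are ends of partial sequences rather than sites of polyadenylation.

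AAUAAA is the signal that directs cleavage and polyadenylation. It was found in 19 of the 95 members with the midpoint near an end (20.0%, 12.5 to 29.5). Of the other 605 members 72 held it (11.9%, 9.43 to 14.8), with overlapping intervals. In 13 of the 19 the peak also held UGUA. Of those with 5 or more steps, 4 are shown because the peak carries both motifs and its midpoint lies near an annotated end. Where the AAUAAA lies relative to that end was not part of the choice. In YWHAE it lies past the end, outside the noncoding segment that held the midpoint (chr17:1361671-1361901). In MPHOSPH9 it lies farther upstream of the end than the midpoint does. The AATAAA (DNA letters) is in capitals.
MPHOSPH9, chr12:123162975-123163004, minus strand: ctaaaattgtagAATAAAgtttactatatt
YWHAE, chr17:1361601-1361630, minus strand: tattttatgattAATAAActgtcatgccat
SFXN3, chr10:101037954-101037983, plus strand: gatgcagaaaccAATAAAcaaggaggcacc
UBE2G2, chr21:44776869-44776898, minus strand: tgtcacgctgctAATAAAgacatattcaag

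Distances were taken from the start of the nearest UGUA upstream to the start of the first AAUAAA of the peak. They were 5 nt in MPHOSPH9, 44 nt in UBE2G2, 107 nt in SFXN3 and 121 nt in YWHAE. The peaks of UBE2G2 and SFXN3 held 2 AAUAAA each, and the windows show the one nearest the midpoint. For these genes the distance need not belong to the AAUAAA shown, and in UBE2G2 it does not. The peaks of MPHOSPH9, a gene for a centriole protein, and of YWHAE, which encodes the 14-3-3 epsilon adaptor, had 8 steps each. The members in SFXN3, a mitochondrial serine carrier, and UBE2G2 had 5 each. YWHAE and SFXN3 held no peak in a coding exon.

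Most genes held a single member. Of 523 genes 406 (77.6%) had 1, 86 had 2 and 31 had 3 or more. The noncoding sequence that held members formed 583 unbroken segments, of which 83 held more than 1 member and 14 held 3 or more. In 47 of the 83 a pair of members had starts exactly 476 nt apart, by far the most frequent distance between peaks of the list (2011 pairs, against 16 for the next). This spacing also linked 28.9% of intron peaks and 12.4% of coding-exon peaks to another peak. Of all members 191 (27.3%, 24.0 to 30.7) had such a partner, and of those with 5 or more steps 18 (9.68%, 5.84 to 14.9). Runs of low members, such as the 4 in TSGA10 with 1 to 2 steps, therefore included peaks at this fixed spacing, while among the 58 members of the 10 genes described next 1, in UBE2G2, had a peak at that distance.

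The 10 genes with most members held 58 of them, all with 5 or more steps, which was 31.2% of the high members. The tenth place was shared by PCF11 and TSGA10 with 4 members each and went to PCF11 by summed Score, so the rule itself kept the low members of TSGA10 out. Without these genes the share of high members was 19.9%. Members lay in rows along 1 or a few noncoding exons, and the rows of 4 genes are drawn along the gene.

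**Figure D3:**
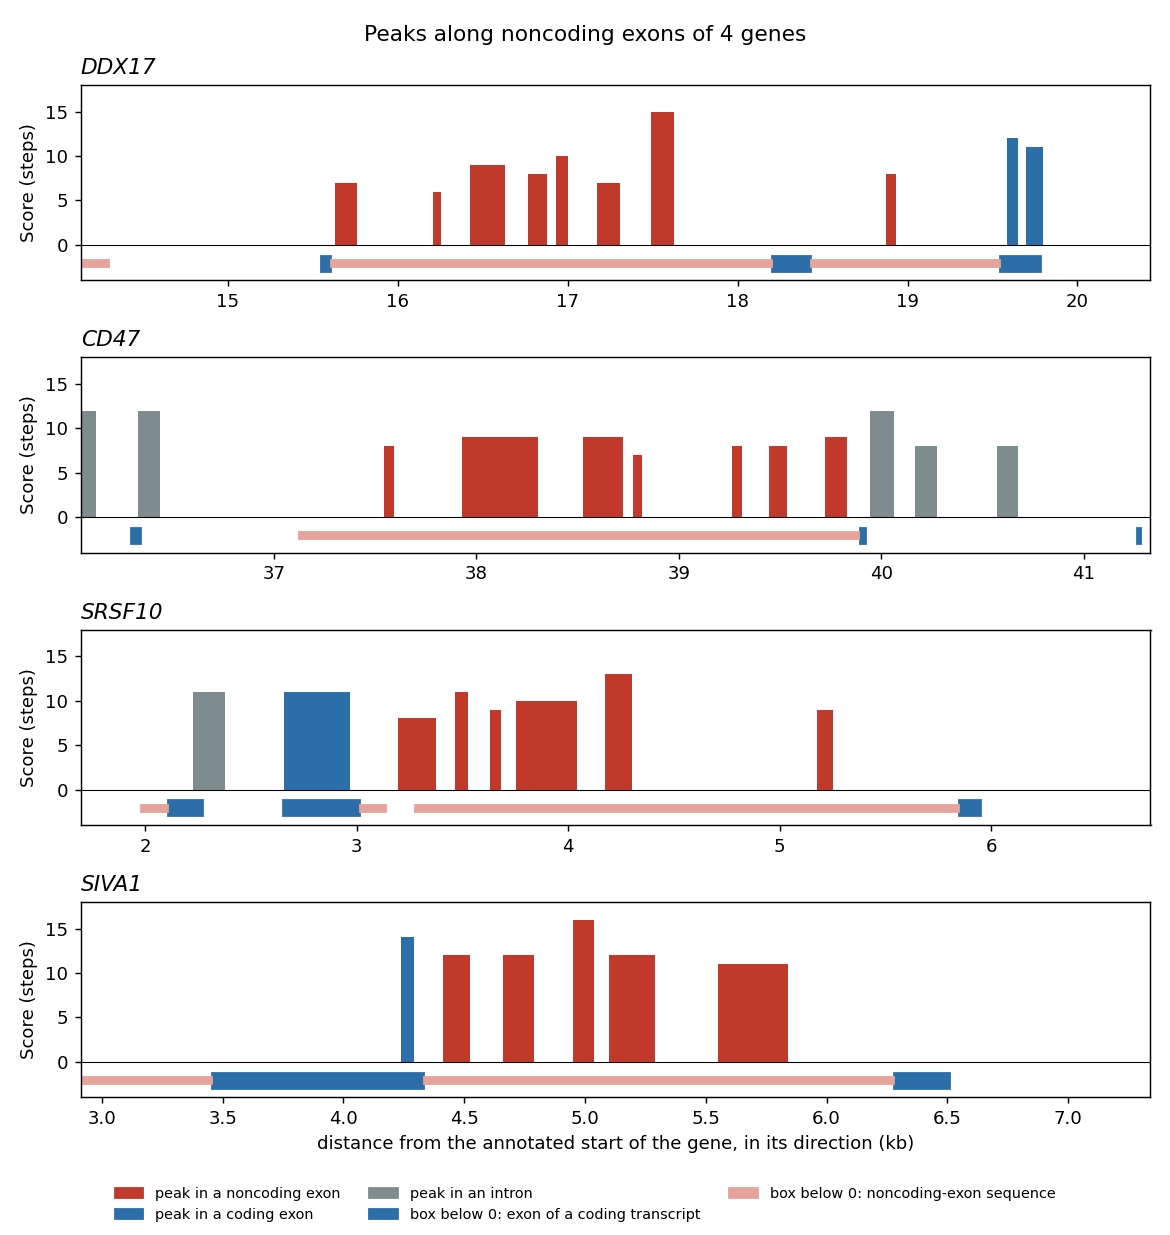
Peaks along the noncoding exons of DDX17, CD47, SRSF10 and SIVA1, with the Score (steps) against the distance from the start of the gene in its direction (kb); boxes below 0 are exons of coding transcripts and noncoding-exon sequence. In each gene several separate peaks of 6 to 16 steps stand along 1 noncoding exon, and in CD47 intron peaks of up to 12 steps flank it.

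DDX17, a DEAD-box RNA helicase that acts in splicing, held 8 members. Of these 7 lay in a retained intron of 2597 nt at chr22:38489459-38492055 (minus strand), with 7, 6, 9, 8, 10, 7 and 15 steps in the direction of the gene. The eighth lay in the next intron with 8 steps. No other intron peak was listed in the gene, and its highest coding-exon peak also had 15 steps. The row thus reached the height of the coding exons, and 2 of the 8 members held UGUA.

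SRSF10, an SR protein that regulates splicing, held 6 members with 8, 11, 9, 10, 13 and 9 steps over a segment of 2572 nt at chr1:23975081-23977652 (minus strand). Its 17 coding-exon peaks reached 14 steps and its 1 intron peak 11. SFPQ, a splicing factor of paraspeckles, had 5 members of 7, 10, 6, 7 and 7 steps over 2609 nt at chr1:35178037-35180645 (minus strand), below its highest coding-exon peak of 22 steps. EWSR1, an RNA-binding protein of the FET family, had 5 members of 8, 6, 9, 5 and 9 steps, all in retained introns, beside 4 coding-exon peaks of up to 10 steps. In all 3 genes the members stayed under the highest coding-exon peak.

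SIVA1, a gene first known for its part in apoptosis, held 5 members of 12, 12, 16, 12 and 11 steps along 1948 nt of a retained intron of 2667 nt, at chr14:104757480-104759427 (plus strand). HMGN1, a nucleosome-binding protein, held 6 with 10, 6, 10, 12, 7 and 10 steps in retained introns, and 4 of its 6 held UGUA. Each of these genes had a single coding-exon peak, of 14 steps in SIVA1 and 6 steps in HMGN1, and no intron peak. Most of their peaks therefore lay in sequence that is spliced out of the coding mRNA. In UBE2G2, an E2 ubiquitin-conjugating enzyme of the endoplasmic reticulum, 5 members of 7, 5, 8, 6 and 7 steps stood beside 1 coding-exon peak of 6 steps and 2 intron peaks of up to 6.

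CD47, the surface protein that keeps phagocytes from engulfing a cell, held 7 members of 8, 9, 9, 7, 8, 8 and 9 steps over 2769 nt at chr3:108051971-108054739 (minus strand), upstream of a coding exon that this noncoding exon extends. The gene also had 10 intron peaks of up to 12 steps, so the row was not limited to annotated noncoding sequence. NUCB2, a calcium-binding protein, held 6 members of 9, 8, 8, 11, 14 and 15 steps over 2269 nt at chr11:17332212-17334480 (plus strand). Its seventh member, at a 5′ splice site shown above, had 36 steps, the highest of all members, with a fold enrichment of 3.07. The highest coding-exon peak of the gene had 38 steps and its highest intron peak 30.

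PCF11, itself a factor of transcript cleavage and termination, held 4 members of 10, 9, 6 and 6 steps over 1248 nt at chr11:83157632-83158879 (plus strand), from 0.681 kb after the annotated start of the gene. They lay in a transcript type that awaits experimental confirmation, the type of 7 members in all. Its highest coding-exon peak also had 10 steps. UGUA was present in 2 of the 4.

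**Figure D4:**
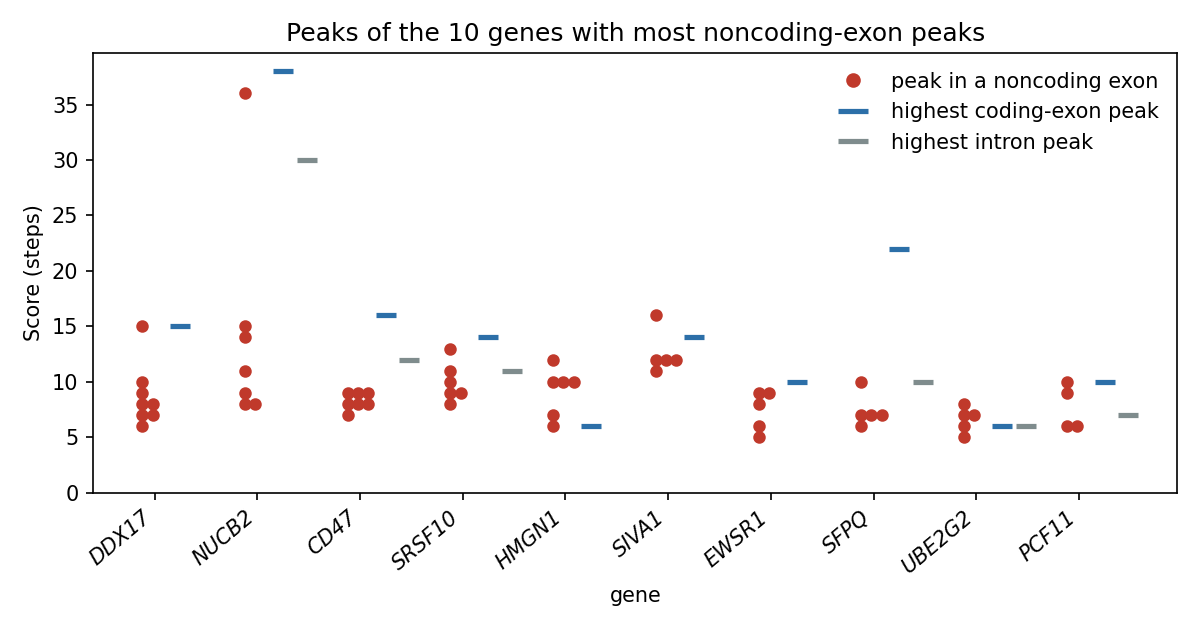
Score (steps, axis from 0) of each member in the 10 genes with most noncoding-exon peaks (points), with the highest coding-exon peak and the highest intron peak of the gene (dashes; a missing dash means that no such peak was listed). The highest member, though not every member, stands above the highest coding-exon peak in HMGN1, SIVA1 and UBE2G2, and members reach 36 steps in NUCB2.

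The peaks with the highest fold enrichment came from 13 genes and had 10 to 36 steps. SMC4, a condensin subunit, led with 3.96 at 15 steps in a peak of chr3:160416400-160416454. It was followed by DCAF16, a substrate receptor of a cullin E3 ligase, with 3.88 at 15 steps, a peak that held 4 UGUA. DDX17 (3.73), LRRFIP2 (3.56) and NUCB2 (3.56) came next, and DDX46, a helicase of early spliceosome assembly, had 3.13 at 10 steps. BUB1, a mitotic checkpoint kinase, had 3.003 and GCN1, a regulator of translation under stress, 2.99, each at 10 steps. Of the 15, 6 lay in spanned introns, 8 in extensions and 1 in an exon inside an intron.

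Coding-exon peaks were common in the genes of members. Of the 523 genes 300 (57.4%, 53.0 to 61.6) held one, and of the 120 genes with a member of 5 or more steps 91 (75.8%, 67.2 to 83.2). In the 300 genes the highest member was lower than the highest coding-exon peak in 218, equal in 42 and higher in 40. The other 29 genes had a high member and no coding-exon peak. Among them were MZB1, an endoplasmic reticulum chaperone best known from B cells, with 13 steps, LRRFIP2 with 12 and PRRC2A with 10. CDK1, the kinase that drives entry into mitosis, had 8 steps and CD247, the zeta chain of the T-cell receptor complex, 6. In each of these 5 genes the member covered bases of a coding exon although its midpoint lay outside it, as did 16 of the 29 high members in the 29 genes.

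Lists of genes by function were set beside the share over all genes. Of 13583 genes with a noncoding exon 3.85% (3.53 to 4.19) held a member, and of the 3535 with a coding-exon peak 8.49% (7.59 to 9.45). The lists were chosen with earlier results of these data known and were not tested.

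Among splicing regulators, 4 of 13 SR protein genes held a member (30.8%, 9.09 to 61.4), with 4 of the 8 that had a coding-exon peak. Besides SRSF10 these were SRSF11 with 9 steps in a retained intron, SRSF9 with 7 steps and TRA2B with 6 and 8 steps in an exon inside an intron. Of 23 hnRNP genes only PCBP2, an RNA-binding protein of C-rich sequence, held one, with 8 steps. Of 6 kinases of SR proteins only CLK3 did, at 1 step. In a list of 18 genes known for regulated intron retention or poison exons, RBM39, a splicing factor, was the only gene with members, of 7 and 8 steps. That list thus stood at 5.56% (0.141 to 27.3), and its interval held the share of all genes.

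Of 16 genes for cleavage and polyadenylation, 5 held a member (31.3%, 11.02 to 58.7), all 5 among the 11 with a coding-exon peak. Only PCF11 had high members. RBBP6 had 4 steps, CPSF7, a partner of NUDT21 in cleavage factor I, 1 and 2 steps, and FIP1L1 and PAPOLA, which encodes the poly(A) polymerase, 1 step each. DEAD and DEAH box helicases held members in 5 of 50 genes (10%, 3.33 to 21.8), namely DDX17, DDX46, DDX42, DHX34 and DHX37, the last 3 with at most 2 steps. Ubiquitin-conjugating enzymes did so in 2 of 29 (6.90%, 0.846 to 22.8), of which UBE2G2 alone had members of 5 or more steps. Of 16 genes of T cells and T-ALL, CDK1 and RUNX1, a transcription factor of blood cell development with 7 steps, held 1 member each.

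Position alone assigns each peak to a gene, since the list has no strand. A gene of the other strand also covered the midpoint of 68 members, 12 lay in an exon of a gene that is not protein-coding and 0 overlapped a small RNA gene. Without the 68 the UGUA ratio within genes was 0.966 (0.863 to 1.08).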

How the data were processed

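eCLIP reads of 1 antibody library were trimmed by the authors with fastp, corrected and deduplicated by molecular identifier, depleted of rRNA reads, mapped to hg38 and called with MACS2. The aligner is not given in the sources used here, nor whether the input served as control. The deposited values per peak are a fold enrichment (ratio to local background), a p-value, an FDR (q-value) and a Score, a signal whose unit the authors did not state. Depth was unknown.

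Peak midpoints were set against GENCODE 44 on hg38 (coordinates from 1). Transcripts with any CDS, those marked for nonsense-mediated decay included, counted as coding, and noncoding exons were taken without every coding exon. Shares have exact Clopper-Pearson intervals and ratios of densities exact conditional intervals of the counts. Ratios within genes are Mantel-Haenszel ratios; pooled ratios give more weight outside peaks to genes with long exons. Intervals are at 95% and cover counting error only. Peaks are not replicates, and no p-value was computed. The counting was tested on simulated data. Sequences were read with pysam 0.24.0, intervals came from scipy 1.17.1 and figures from matplotlib 3.10.9, run under Python 3.11.15 with pandas 2.3.3 and numpy 2.4.6.

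Members and lists were chosen with earlier results of these data known. Genes were named as the 10 with most members (ties by summed Score), the 15 members with the highest fold enrichment, any member with an FDR under 0.05, and list genes that held a member; others were chosen after their values were seen. Alternatives were an FDR under 0.05, a fold enrichment of at least 2, 5 or more steps, merging of peaks within 100 nt, no coding base, nonsense-mediated decay transcripts as noncoding, retained-intron transcripts only and no gene on the other strand. Ratios within genes, genes with a coding-exon peak, the distance classes, the sides of exons and the omission of the 10 genes were chosen after seeing the data. Some items are not reported here.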

Additional observations from a re-analysis of the deposited data

How the results depend on the processing

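Against 700 members, an FDR under 0.05 left 0, a fold enrichment of at least 2 left 170, 5 or more steps left 186 and no base in a coding exon left 435. At a fold enrichment of at least 2, 100% had 5 or more steps, 45.9% lay in a spanned intron and the density ratio was 13.5. At 5 or more steps the last 2 were 45.2% and 13.7. With retained-intron transcripts only, 48.4% lay in a spanned intron and 42.0% covered a coding exon. The density ratio was 3.79 in genes with a coding-exon peak, 1.12 within 100 nt of a coding exon and 4.30 beyond 500 nt. Without the 10 genes with most members it was 4.53, and 19.9% of members had 5 or more steps.

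The UGUA ratio (0.956 to 1.03) and the share near 3′ ends (11.7% to 13.98%) moved by less than their counting error under the alternatives run for them, and no ratio in these alternatives fell to the other side of 1 except that of UGUA. No paired analysis was possible because each group had 1 library and 1 group had no file used here. With 1 library and unknown depth, reproducibility was not measured.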
